A study of Caenorhabditis elegans with 6 samples.

Results

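Chromatin accessibility was described at 43 genes that set germ cell fate and oogenesis in Caenorhabditis elegans, out of 19973 protein-coding genes of the nuclear chromosomes. The genes were listed by their known roles, as regulators of germline stem cells, meiotic entry, sperm or oocyte choice, sex determination and oocyte RNA. The rule used no accessibility value, but the list was chosen with earlier results of these data known. A gene was counted as having a peak where a peak lay within 500 bp of its annotated 5' end (a 5' end peak) or otherwise overlapped the gene (a body peak). ATAC-seq, in which the Tn5 transposase cuts open DNA, had been run on isolated germ nuclei (IGN) of young adults grown at 20 °C, in 3 samples of each of 2 genotypes, wild type and prde-1 mutant. PRDE-1 is a germline protein needed for piRNA transcription, and the study asked how its loss changes the chromatin of piRNA genes.

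The wild type samples were strain VC2010, harvested at 49 to 52 h, and the mutant samples were strain SX2499, prde-1(mj207)V, harvested at 56 to 59 h. Genotype therefore went with strain and with hours of growth, and these cannot be told apart. For each genotype the 3 samples were pooled into 1 peak list, so no value per sample, no replicate error and no test between genotypes could be had, and depth was unknown. Each value below is that of 1 pooled list. A peak was given its rank within its own list, rank 1 having the largest area under the −log10 p curve. Strong and weak below refer to this rank, and a wide peak can outrank one with a higher −log10 p at its summit. Ranks and areas were not on a common scale between the lists, and a peak missing from a list may have fallen under the calling threshold.

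The wild type list held 13996 peaks over 6.77% of the nuclear genome and the prde-1 list 9674 peaks over 3.81%, and 36.1% of all wild type peaks shared no base with a prde-1 peak. Among 14 germ line marker genes, 12 had a peak in each list, with him-3 and syp-1, of the meiotic chromosome axis and the synaptonemal complex, at none. Among 24 marker genes of muscle, neuron, intestine and hypodermis, 17 had a wild type peak and 14 a prde-1 peak. The yolk protein genes vit-2 and vit-6 held wild type ranks 2 and 3 and prde-1 ranks 11 and 24. Peaks at genes of somatic tissues were therefore in both lists, and the part of somatic nuclei in the results below was not tested.

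The germ line of the worm is a tube in which cells move from a stem cell niche through meiosis to oocytes. At the niche, the Notch receptor GLP-1 and its DNA-binding partner LAG-1 keep cells mitotic through LST-1, SYGL-1 and the PUF family RNA-binding proteins FBF-1 and FBF-2. The GLD and Nanos proteins then act on mRNAs to bring cells into meiosis, the FOG, FEM, TRA and MOG proteins decide between sperm and oocyte, and a set of RNA-binding proteins silences and releases maternal mRNAs in oocytes and the early embryo. Most of this control acts on RNA after transcription, which ATAC-seq does not measure.

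The sequences under peak summits are given first for the genes on which the results turn. The lag-1 sequence comes from the strongest peak of the stem cell group, inside an intron at chrIV:6097165-6097330 on the plus strand, and was chosen after its values were seen. Capitals mark both matches to TTCCCAC, the other strand of GTGGGAA, the core of the site that LAG-1 itself binds.
lag-1 intron: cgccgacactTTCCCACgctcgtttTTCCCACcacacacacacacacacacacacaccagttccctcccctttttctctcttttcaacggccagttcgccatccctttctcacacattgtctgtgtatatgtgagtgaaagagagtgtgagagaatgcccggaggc

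The paralogs fbf-1 and fbf-2 are shown because each had a weak peak at its own 5' end that was in the wild type list alone. The stretches lie at chrII:6080844-6080954 and chrII:6091481-6091602, both on the minus strand, and end at the base before the annotated 5' end. In these and all sequences that follow, capitals mark the summit and 10 bases on each side.
fbf-1 upstream: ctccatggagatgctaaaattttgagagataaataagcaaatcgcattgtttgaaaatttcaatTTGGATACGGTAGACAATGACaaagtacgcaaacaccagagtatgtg
fbf-2 upstream: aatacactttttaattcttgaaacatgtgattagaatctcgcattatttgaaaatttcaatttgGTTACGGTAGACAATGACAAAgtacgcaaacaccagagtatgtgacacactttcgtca

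The fbf-1 and fbf-2 stretches shared an identical run of 42 bp that overlapped both summits. Over the whole genes, 17.8% of the 50-base words of fbf-1 and 17.0% of those of fbf-2 occurred elsewhere in the genome, and its bearing on read placement was not tested.

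The next pair shows the oocyte paralogs oma-1 and oma-2, whose best ranked peaks differed in position. The oma-1 stretch, at chrIV:8888629-8888778, lies upstream of its gene. For oma-2, the upstream peak, at chrV:8028891-8029040, ranked below the peak whose summit lay past the 3' end of the gene, at chrV:8031306-8031410 and close to the 5' end of vars-1. That order is by area, and in wild type the upstream peak had the higher −log10 p at its summit, 10.8 against 8.23. The upstream stretch of oma-2 was added after its values were seen. All these stretches are on the plus strand.
oma-1 upstream: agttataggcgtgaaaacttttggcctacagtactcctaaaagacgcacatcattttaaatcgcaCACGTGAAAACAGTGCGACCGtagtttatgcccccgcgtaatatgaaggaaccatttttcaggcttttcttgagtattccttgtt
oma-2 upstream: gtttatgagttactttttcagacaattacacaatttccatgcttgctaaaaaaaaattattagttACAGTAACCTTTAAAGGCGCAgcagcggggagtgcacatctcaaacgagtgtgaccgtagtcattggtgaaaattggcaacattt
oma-2 downstream: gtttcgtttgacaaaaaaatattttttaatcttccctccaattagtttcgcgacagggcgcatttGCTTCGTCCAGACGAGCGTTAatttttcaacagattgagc

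The last set shows, for each class but the oocyte surface, where both wild type summits lay in coding exons, the best ranked 5' end peak whose summit lay outside exons, together with the upstream peak of mex-5. It comprises mog-4 at chrII:14561799-14561948 on the minus strand and 4 stretches on the plus strand, namely mex-5 at chrIV:13353353-13353502, gld-3 at chrII:7132051-7132200, mex-1 at chrII:11967626-11967775 and puf-11 at chrIV:6423505-6423654. Only the mog-4 summit was nearest to its own gene's 5' end among those upstream, and the puf-11 summit lay past the 3' end of puf-11.
mog-4 upstream: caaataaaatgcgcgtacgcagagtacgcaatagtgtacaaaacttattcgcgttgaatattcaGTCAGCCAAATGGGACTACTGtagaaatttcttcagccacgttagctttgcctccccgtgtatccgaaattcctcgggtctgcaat
mex-5 upstream: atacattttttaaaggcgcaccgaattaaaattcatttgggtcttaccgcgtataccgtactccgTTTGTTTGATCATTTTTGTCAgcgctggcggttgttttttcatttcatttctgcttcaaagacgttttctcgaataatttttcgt
gld-3 upstream: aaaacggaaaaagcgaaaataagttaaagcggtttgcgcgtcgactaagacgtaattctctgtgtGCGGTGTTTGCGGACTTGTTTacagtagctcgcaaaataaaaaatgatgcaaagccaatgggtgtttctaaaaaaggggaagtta
mex-1 upstream: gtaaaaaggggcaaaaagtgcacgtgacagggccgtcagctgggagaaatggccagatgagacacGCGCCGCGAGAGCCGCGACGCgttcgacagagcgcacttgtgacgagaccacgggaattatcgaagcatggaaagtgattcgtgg
puf-11 downstream: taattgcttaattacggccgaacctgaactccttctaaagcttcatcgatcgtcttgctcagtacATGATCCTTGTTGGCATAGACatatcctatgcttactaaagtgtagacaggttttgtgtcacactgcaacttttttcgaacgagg

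The mex-1 stretch was the richest in G and C of these sequences, at 57.3%, and the fbf-2 stretch was at 32.8%.

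Most of the germ cell fate and oogenesis genes had accessible chromatin in IGN. In wild type, 34 of the 43 genes (79.1%) had a peak, against 39.4% of all protein-coding genes. In the prde-1 list 28 of the 43 (65.1%) had one, against 31.2%. At the 5' end alone, 28 genes had a wild type peak and 24 a prde-1 peak, where 30.6% and 25.1% of protein-coding genes did. A single base inside the window was enough for this. With the summit itself required there, the counts were 23 and 21, and the shares of all protein-coding genes were not recomputed. Shares above those of all protein-coding genes were not particular to this set. Of the 24 marker genes of somatic tissues, 17 had a wild type peak and 14 a prde-1 peak, with 13 and 11 at the 5' end. The median length of the 43 genes was 2642 bp and that of all protein-coding genes 2027 bp, and a longer gene has more room for a body peak. All 28 genes with a prde-1 peak also had a wild type peak, 6 had a peak in the wild type list alone, and 9 had none in either list.

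The 34 genes held 79 wild type peaks, 42 at a 5' end and 37 in a body. Of these peaks 29 (36.7%, 95% Wilson interval 26.9 to 47.7%, counting error only) had no prde-1 counterpart sharing a base, close to the 36.5% of all wild type peaks at protein-coding genes. With the wild type list cut to the length of the prde-1 list the share was 19%, beside 17.1% at all protein-coding genes. With the whole wild type list divided by rank into 10 bins of equal size, the shares without a counterpart in the bins of the 79 peaks added up to 27.6 peaks. Peaks at 5' ends were without a counterpart in 8 of 42 cases and body peaks in 21 of 37, beside 25.4% and 51.2% over all protein-coding genes. The latter shares class a peak at any gene's 5' end as a 5' end peak. Peaks of the listed genes were classed by their own gene alone, so some body peaks lie at a neighbour's 5' end. The shares are therefore not fully alike. The peaks without a counterpart were weak, with a median rank of 12038, whereas those with one had a median rank of 4868. Among the 54 prde-1 peaks at the genes 1 had no wild type counterpart, beside 1.73% of all prde-1 peaks at protein-coding genes. Against the shortened wild type list 4 had none, beside 10.8%.

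The strongest peak of each gene had a median rank percentile of 28.1 over the 34 genes in wild type, where 0 is the strongest, and of 35.6 over the 28 genes in prde-1. The same medians over all protein-coding genes with a peak were 35.5 and 40.8. The percentile was lower in wild type for 24 of the 28 genes in both lists. The same rank number gives a lower percentile in the longer wild type list, so this count cannot be read as a change in accessibility.

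**Figure D1:**
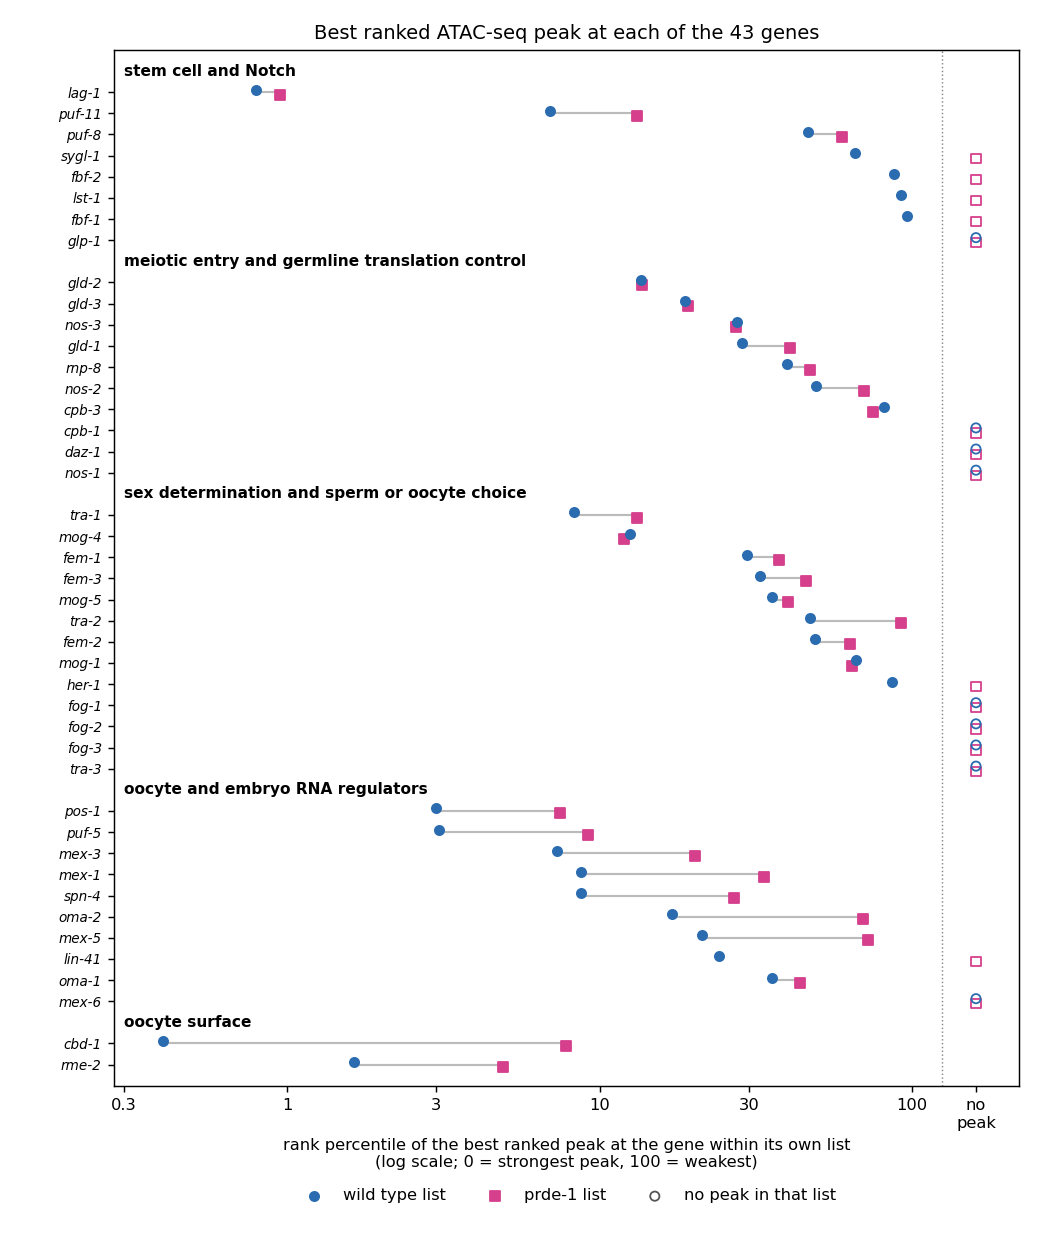
The rank percentile (log scale) of the strongest peak at each of the 43 genes within the wild type list (blue circles) and the prde-1 list (pink squares), by class; open symbols at the right mark genes with no peak in that list. The lowest percentiles are those of cbd-1 (0.400 in wild type) and lag-1 (0.793), and 9 genes have no peak in either list.

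In the stem cell and Notch class, the transcription factor gene lag-1 and the RNA regulator genes puf-8 and puf-11 had peaks in both lists, whereas the Notch target genes lst-1 and sygl-1 and the PUF genes fbf-1 and fbf-2 had weak peaks in the wild type list alone. Thus 7 of the 8 genes had a wild type peak and 3 a prde-1 peak. The receptor gene glp-1 had none. Its nearest peaks lay just outside the window, 615 bp from the 5' end in wild type (rank 8163) and 611 bp in prde-1 (rank 6614).

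No peak lay at the 5' end of lag-1. Its main peak was 918 bp wide in wild type, with the summit in an intron 1913 bp into the gene, rank 111 and a −log10 p of 46.6 at the summit. The prde-1 peak was 899 bp wide, with its summit at 1912 bp, rank 92 and a −log10 p of 30.5. This intronic region was thus among the strongest of either list, and its position moved by 1 base. Weaker intronic peaks followed at 2869 bp (rank 11928) and 4537 bp (rank 8383), both with prde-1 counterparts, and a peak with its summit in a coding exon at 9277 bp (rank 8535) had none.

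The lag-1 peaks held 4 copies of the LAG-1 site core GTGGGAA within 300-bp windows around their summits, 2 of them in the strongest peak, as shown in the intron sequence above. These copies began 1768 and 1783 bp into the gene, before the summit at 1913 bp. Over all 79 wild type peaks at the genes, 8 windows (10.1%) held the core on either strand, beside 4.67% of the windows of all wild type peaks. These included the lag-1 windows at ranks 111, 11928 and 8535, so a single gene made up much of the count. The other genes with a match were mex-3, mog-4, pos-1, rnp-8 and tra-1. The windows of the Notch target genes lst-1 and sygl-1 held no match. A match in letters is no evidence of binding.

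The peak of lst-1 had its summit 361 bp before the 5' end, a width of 101 bp and rank 12851. That of sygl-1 overlapped the 3' end of the gene, with its summit 338 bp past it and nearest to the 5' end of pars-2, at rank 9156. The fbf-1 summit lay 37 bp upstream at rank 13485, with a peak of 101 bp, and the fbf-2 summit 48 bp upstream at rank 12248, with a peak of 106 bp. The lst-1, fbf-1 and fbf-2 peaks sat in the last 2 of the 10 rank bins of the wild type list, in which 82.3% and 89.8% of all peaks had no prde-1 counterpart.

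The 2 PUF genes with peaks in both lists differed in pattern. At puf-8, which acts against stem cell overgrowth, a single peak lay 246 bp upstream in both lists, at ranks 6495 and 5774. At puf-11 a narrow upstream peak (summit 236 bp before the 5' end, rank 7458) and a peak with its summit in a coding exon (264 bp into the gene, rank 7673) stood beside a 1686-bp peak whose summit lay 83 bp past the 3' end, at rank 971. Each of the 3 had a prde-1 counterpart, at ranks 6392, 8489 and 1279.

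Among the genes of meiotic entry and germline translation control, gld-1, gld-2, gld-3, rnp-8, nos-2, nos-3 and cpb-3 had peaks in both lists, 7 of 10, and nos-1, daz-1 and cpb-1 had none. The nearest wild type peaks to the 5' ends of these lay 2823 bp from nos-1, a Nanos gene, 4541 bp from daz-1, the worm member of the DAZ family needed for oogenesis, and 4237 bp from cpb-1, a CPEB gene needed for spermatogenesis.

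The translational repressor gene gld-1 had a peak 324 bp upstream in both lists, at rank 3994 in wild type and 3929 in prde-1. A 1497-bp wild type peak with its summit in a coding exon (rank 4075) and another in the 3' UTR (rank 12061) had no counterpart. The upstream element was therefore in both lists and the cover of the gene body in wild type alone.

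At gld-2, which encodes a cytoplasmic poly(A) polymerase, the strongest peak lay in an intron 9437 bp into the gene in both lists, at ranks 1907 and 1322. The 5' end peak, with its summit 152 bp into the gene, held ranks 4769 and 3703. Of the other intronic peaks, that at 11246 bp was in both lists (ranks 9301 and 6629) and that at 10802 bp in wild type alone (rank 12805). The 5' end was thus not the most accessible point of gld-2.

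The gene of the GLD-2 partner GLD-3 had 1 peak 517 bp upstream, at ranks 2623 and 1844, but its summit was only 94 bp from the 5' end of T07F8.4. At rnp-8, which encodes another GLD-2 partner, peaks lay 434 and 180 bp upstream at wild type ranks 6642 and 5562, and another had its summit 120 bp into the gene in a coding exon (rank 7207). All 3 rnp-8 peaks were in the prde-1 list, at ranks 5113, 4561 and 8495. At cpb-3, a CPEB gene, a 134-bp peak 286 bp upstream held rank 11359 in wild type and 7268 in prde-1. This was the weakest wild type peak among those that were a gene's only peak and had a counterpart.

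The Nanos genes differed among themselves. At nos-3, the peak 22 bp before the 5' end was in both lists, at ranks 3863 and 2649, whereas 4 further wild type peaks along the gene, at ranks 8546 to 13377, had no counterpart. At nos-2 the single peak had its summit 71 bp before the 3' end, at ranks 6877 and 6775, and 27.3% of the 50-base words of this gene occurred elsewhere in the genome.

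In the class of sex determination and sperm or oocyte choice, 9 of 13 genes had a wild type peak and 8 a prde-1 peak. The genes fog-1, fog-2 and fog-3, which encode a CPEB protein, an F-box protein and a Tob family protein that direct sperm fate, had none in either list. Their nearest wild type peaks lay 11907, 3215 and 9230 bp from the 5' end. By contrast, the fem genes and all of mog-1, mog-4 and mog-5 had a 5' end peak in both lists. The protease gene tra-3 also had no peak, the nearest wild type peak lying 1068 bp from its 5' end. It was the only gene of the 43 within the longer piRNA domain of chromosome IV, with 28 piRNA genes in its span, and lag-1, fem-1 and rme-2 lay in the shorter domain.

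The FEM proteins promote male fate. Their genes had peaks close to the 5' end, with the fem-1 summit 18 bp upstream at ranks 4140 and 3628, the fem-2 summit 160 bp upstream at ranks 6847 and 6126, and the fem-3 summit in the 5' UTR, 109 bp into the gene, at ranks 4547 and 4424. Body peaks of fem-1 (rank 9672) and fem-2 (rank 12369) were in the wild type list alone. At fem-3 a peak 64 bp past the 3' end was in both lists, at ranks 7746 and 6710. The fem-3 gene also had the only prde-1 peak of the set without a wild type counterpart, a 101-bp peak 449 bp upstream at rank 9564, nearer to the 5' end of C01F6.14.

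TRA-1, a GLI family zinc finger protein, is the last step of the sex determination pathway. Its gene, 24312 bp long on chromosome III, had the most peaks of the 43 genes, with 10 in wild type and 5 in prde-1. A peak 502 bp upstream was in both lists (ranks 3635 and 3480), while a 117-bp peak 128 bp upstream (rank 12965) was in wild type alone. The strongest lay in an intron 9486 bp into the gene, at ranks 1156 and 1276, and a second intronic peak at 6868 bp held ranks 2805 and 3842. The other 4 peaks without a counterpart were all intronic, at wild type ranks 7179 to 11888.

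The core of the site that TRA-1 binds, GGGTGGTC, was found in 1 of the 79 wild type windows, at fem-3, 29 bp from the summit of the 5' UTR peak. This was 1.27%, beside 0.750% of all wild type peaks. An E2F site, spelled TTTCCCGC, TTTGGCGC, TTTCGCGC or TTTGCCGC, was found in 5 windows (6.33%), beside 7.30% of all, at fem-2, gld-1, mex-1 and puf-11.

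The other sex determination genes had fewer or weaker peaks. The receptor gene tra-2 had 1 peak near its 3' end, with its summit 431 bp before that end in a coding exon, at ranks 6608 and 8876. The gene of the secreted ligand HER-1, which binds TRA-2 in males, had a 191-bp peak 10 bp upstream in the wild type list alone, at rank 12038.

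The mog genes encode DEAH-box RNA helicases needed for the switch from sperm to oocytes. At mog-4 a peak 275 bp upstream held rank 1755 in wild type and 1159 in prde-1. The mog-1 peak, 114 bp upstream, held ranks 9257 and 6199. At mog-5 a peak 138 bp upstream held ranks 4967 and 3882, and another 516 bp upstream (ranks 5188 and 4597) was nearer to the 5' end of fbxl-3. Each mog gene therefore had an upstream peak in both lists, and only mog-4 had exonic peaks, at ranks 12659 and 13582, in wild type alone.

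**Figure D2:**
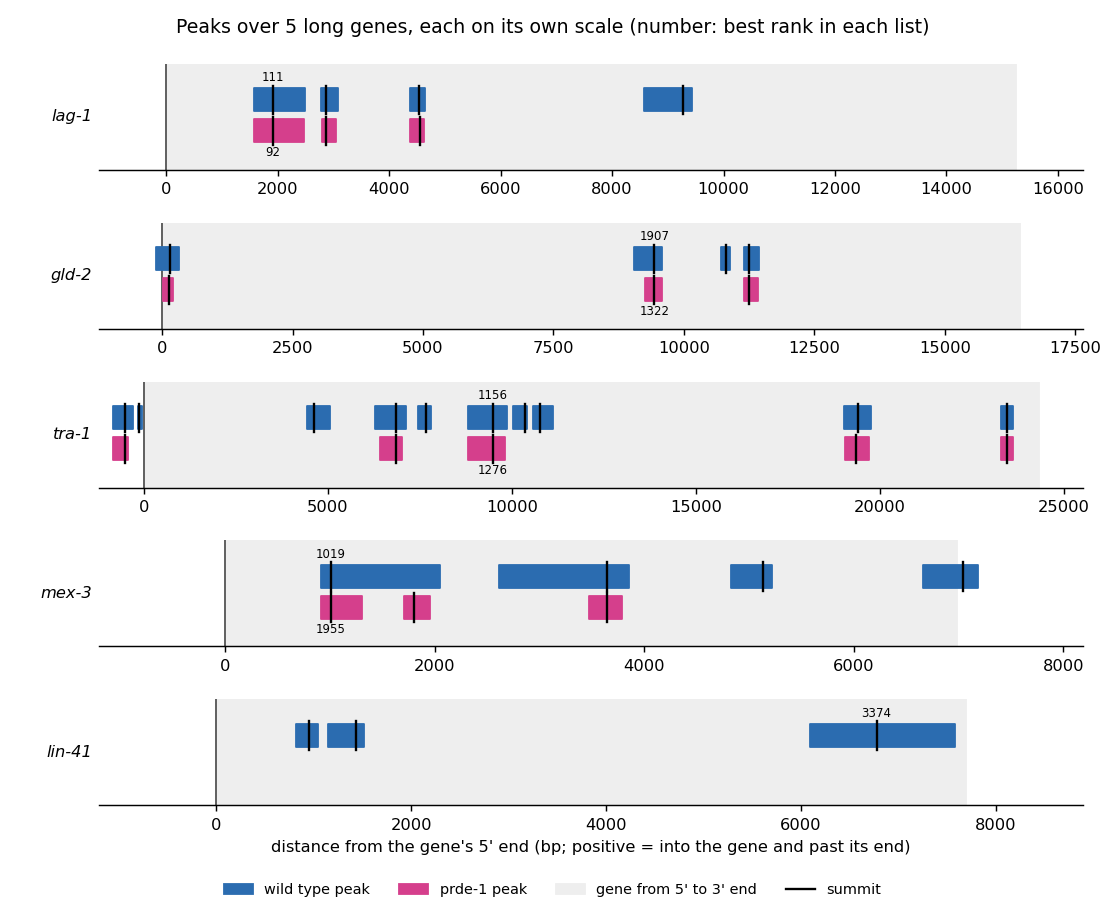
Peaks along lag-1, gld-2, tra-1, mex-3 and lin-41 by distance from the 5' end in bp, with wild type peaks in blue above prde-1 peaks in pink; grey marks the gene, black lines the summits, and the number the best rank in each list. The strongest peaks of lag-1, gld-2 and tra-1 lie in introns at the same place in both lists, and all 3 lin-41 peaks are wild type only.

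The genes of oocyte and embryo RNA regulators had, after the oocyte surface genes, the highest median cover of the 5 classes, cover being the share of a gene inside peaks. In this class 9 of 10 genes had a wild type peak and 8 a prde-1 peak, and the median cover was 65.0% in wild type and 28.2% in prde-1. The yolk receptor gene rme-2 and cbd-1, which encodes a chitin-binding protein of the oocyte surface and eggshell, were covered over 100% in wild type. Over the 43 genes, 10 were covered over at least 50% of their length by wild type peaks, beside 5.21% of protein-coding genes, and 7 over at least 90%, beside 1.93%. In prde-1 these counts were 6 and 5, beside 2.23% and 0.856%.

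The widest were cbd-1 and rme-2. A single wild type peak of 5512 bp, the 56th of the list, covered cbd-1, with its summit in a coding exon 340 bp before the 3' end. In prde-1 the same stretch held a 2640-bp peak at rank 1483 and a 2710-bp peak at rank 755, which together covered 97.2% of the gene. At rme-2 a 3687-bp wild type peak (rank 230) and a 3625-bp prde-1 peak (rank 476) each covered the whole gene. Cover of whole genes was not limited to germline genes, since vit-2, vit-6 and asp-1 of the intestine were also covered over 100% in wild type; their part in this result was not tested.

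The maternal zinc finger gene pos-1 was covered by a 3066-bp wild type peak at rank 418, with its summit in the 3' UTR, 79 bp before the 3' end. In prde-1 the 3' UTR summit was at the same base, at rank 721, and a separate peak 307 bp upstream held rank 3586, nearest to the 5' end of vha-18. At puf-5, a PUF gene of late oogenesis, a 2840-bp wild type peak (rank 430) overlapped a 2221-bp prde-1 peak at rank 886 and a 146-bp upstream one at rank 7216, and the 3' UTR summit was again at the same base. The prde-1 peaks covered 94.9% of pos-1 and 91.8% of puf-5.

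At spn-4, which encodes an RNA-binding protein of the early embryo, the peak over the gene was 2059 bp wide (rank 1223) in wild type, where it came within 500 bp of the 5' end, and 952 bp wide (rank 2603) in prde-1, where it did not, and the cover was 96.7 and 33.2%. Both summits were in the 3' UTR. The peak upstream of spn-4, 397 bp from the 5' end and 151 bp from that of spe-39, held ranks 4071 and 3382.

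At mex-5, which sets up anterior polarity in the zygote, the cover was 90.1% in wild type and 35.3% in prde-1. The peak with its summit in the 3' UTR was 2089 bp wide at rank 2969 in wild type and 383 bp wide at rank 8549 in prde-1. The upstream peak, 295 bp from mex-5 and 235 bp from the meiotic cohesin gene rec-8, held ranks 8586 and 7460, and a peak with its summit in a coding exon, 46 bp into the gene, held ranks 5069 and 6969. The paralog mex-6 had no peak, and the nearest lay 21812 bp from its 5' end in wild type.

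The redundant oocyte maturation genes oma-1 and oma-2 each had an upstream peak in both lists, 272 bp from oma-1 at ranks 4979 and 4250 and 473 bp from oma-2 at ranks 6890 and 6736. The body of oma-1 held a 768-bp peak in wild type alone (rank 7758), so its cover was 37.9% in wild type and 0 in prde-1. At oma-2 a 1593-bp wild type peak over most of the gene, whose summit lay 30 bp from the 5' end of vars-1, held rank 2377. It overlapped 2 prde-1 peaks, a 911-bp one at rank 7190 with its summit in a coding exon and a narrower one at rank 8248 with its summit at the same base as in wild type. The cover of oma-2 was 77.6 and 51.3%.

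The remaining genes of this class had peaks at several places. At mex-1, a peak 936 bp upstream that was nearest to W03C9.5 held wild type rank 1284 and overlapped a prde-1 peak at rank 879 that ended outside the window. A 152-bp peak 207 bp upstream was in both lists at ranks 6097 and 4476. A 2081-bp peak with its summit 571 bp past the 3' end held rank 1221 in wild type and 3252 in prde-1. At mex-3, a KH domain gene, the strongest peak lay in an intron 1008 bp into the gene, at ranks 1019 and 1955. Another in an intron at 3643 bp held ranks 1969 and 5375. No peak lay within 500 bp of the outermost 5' end of mex-3, but this gene has 5 annotated transcript 5' ends. The strongest summit lay 404 bp from the nearest of these in wild type and 403 bp in prde-1.

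The gene lin-41, which encodes a TRIM-NHL protein that holds oocytes before maturation, was the only one of this class with peaks in wild type alone. Its 3 body peaks held ranks 3374, 12469 and 12772, the first being 1492 bp wide with its summit in the 3' UTR. By area this was the strongest wild type peak among the 29 without a counterpart. Its −log10 p at the summit, 6.28, was lower than that of some others of the 29, such as 8.17 at tra-1 (rank 7179). The prde-1 list had its nearest peak to the lin-41 5' end at 1192 bp.

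Over all 43 genes the cover was lower in prde-1 for 28 and higher for 0. Among the 10 genes covered over at least 50% in wild type, the median cover was 95.5% in wild type and 71.6% in prde-1. The same medians over the 1041 protein-coding genes so covered were 80.3 and 37.4%. Both sets were picked by their wild type cover, a choice that itself favours lower cover in prde-1. The medians of genes picked by prde-1 cover were not computed, so these values cannot be read as a change in accessibility. The largest difference was at gld-1, from 71.6% to 0, while puf-11 changed little, from 94.2 to 92.5%. The lower cover went with the lower cover of the whole genome in the prde-1 list.

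**Figure D3:**
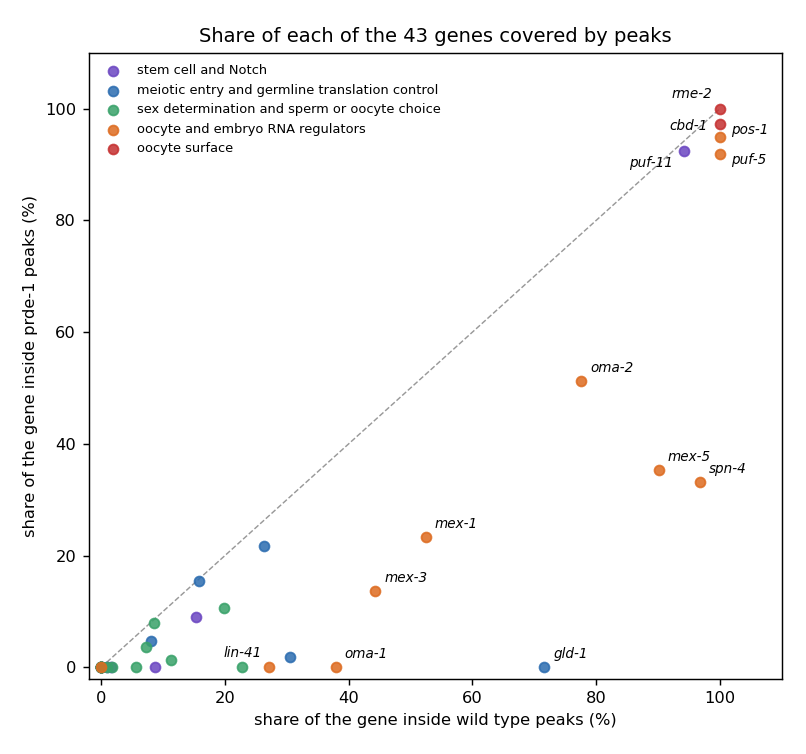
The share of each of the 43 genes inside wild type peaks (x axis, %) and inside prde-1 peaks (y axis, %), coloured by class; the dashed line marks equal cover. No gene lies above the line, rme-2, cbd-1, pos-1, puf-5 and puf-11 lie near the upper right corner, and gld-1 lies at 71.6% and 0.

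Summits fell in 3' UTRs in 8 of the 79 wild type peaks (10.1%), beside 2.19% of wild type peaks at protein-coding genes. These were at gld-1, nos-3, tra-1, pos-1, mex-5, spn-4, puf-5 and lin-41. Summits in coding exons made up 22 of the 79 (27.8%), beside 19.9%, and 13 of these had no counterpart, beside 70.5% of such peaks at all protein-coding genes. Of the 31 summits between genes 7 had no counterpart, beside 15.7%. Wild type summits in a coding exon or 3' UTR numbered 12 of 23 in the oocyte and embryo RNA class and 8 of 18 in the meiotic entry class. They numbered 6 of 24 in the sex determination class, 2 of 12 in the stem cell class and 2 of 2 at the oocyte surface. Over all wild type peaks at protein-coding genes the share was 22.1%. Differences between these small classes were not tested. Summits within 500 bp of a gene's 3' end, 14 of 79, stood beside 13.7% over all such peaks. In 20 of the 79 peaks the nearest protein-coding 5' end to the summit was that of another gene.

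The set was spread over the autosomes, with 10 genes on chromosome I, 14 on II, 5 on III, 9 on IV, 5 on V and 0 on X. On IV, 8 of 9 genes had a peak in both lists. On I, 8 of 10 had a wild type peak and 5 a prde-1 peak, the absent ones being lst-1, sygl-1 and lin-41. By the nearest peak of each gene, the genes closest to the 500-bp limit were lst-1 (333 bp) on the inside in wild type and tra-1 (418 bp) in prde-1, and glp-1 on the outside in both. The 5' ends of lin-41, mex-3 and lag-1 had their nearest wild type peaks at 817, 915 and 975 bp and were counted through body peaks only. With the 5' ends of every transcript used, 30 genes had a wild type 5' end peak, in place of 28.

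Related genes of the same pathways, listed apart from the 43, gave 30 of 37 with a wild type peak and 26 with a prde-1 peak. These stood beside 39.4% and 31.2% of all protein-coding genes. A further listed gene, she-1, was not matched by symbol and was left out. Among the 4 Notch genes, sel-8, which encodes a co-activator of LAG-1, had its best peak at ranks 189 and 459, the ligand gene lag-2 and the receptor gene lin-12 had peaks in wild type alone, and the ligand gene apx-1 had none. Among the other PUF and CPEB genes, 5 of 6 had a peak in each list. The puf-11 paralog puf-3 was covered over 100% in wild type and 94.2% in prde-1. Of 7 genes of GLD partners and other germline RNA regulators, 5 had a peak in each list, and gld-4 and gls-1 had none. Of 12 further sex determination genes 10 had a peak in each list, the strongest at sup-26, an RNA-binding repressor of tra-2, at ranks 13 and 15. Of 8 eggshell and egg activation genes, 7 had a wild type peak and 5 a prde-1 peak, and egg-1, an LDL receptor repeat gene of the oocyte surface, was covered over 100% in wild type and 12.6% in prde-1.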

How the data were processed

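IGN of 2 genotypes, with 3 samples each, were profiled by ATAC-seq. The authors aligned adapter-trimmed reads (cutadapt) to ce11 with bowtie2 and required a mapping quality of at least 10. Mitochondrial and duplicate reads were dropped, and the replicates were brought to like depth and pooled. Fragments under 100 bp were kept and shifted for Tn5. Genrich then called the peaks of each genotype; whether it read the pooled file or the replicates was not given in the sources used here, and the area and −log10 p depend on this. Tool versions were not given in the sources used here. Nuclei per sample were stated as 50000 in the methods, while the labels give a larger number. The authors deposited 1 list per genotype with a score column, the area under the −log10 p curve, an unadjusted −log10 p at the summit, and the summit offset. The lists held 0 columns of values per sample, so the depth and spread of samples were unknown. A differential analysis of the reads was not repeated here.

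Genes came from Ensembl release 115 (WBcel235, the same assembly as ce11), and sequences from the RefSeq copy of that assembly. All 43 symbols matched. A counterpart shared at least 1 base. The piRNA domains were the 3.5 Mb and 1.5 Mb windows of chromosome IV richest in piRNA genes. Shares carry Wilson intervals at 95% where given, for counting error only. No test was run. All genes were accounted for by 5 classes; genes with a 5' end peak, with peaks in 1 list or with no peak were named. The members, classes, related genes and markers were chosen with earlier results of these data known. Gene assignment and overlap were tested on simulated data. Python 3.11.15, numpy 2.4.6, scipy 1.17.1 and matplotlib 3.10.9 were used.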

Additional observations from a re-analysis of the deposited data

How the results depend on the processing

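The counts of genes with a peak and the median rank percentile stayed within 1.5 times of the main value, or within its 95% order-statistic interval (12.5 to 46.4), under windows of 250 and 1000 bp, the 5' ends of every transcript, the upper 50% of a list, equal list lengths (wild type genes only), summits in place of any base, own nearest peaks and rank by −log10 p. The genes with a wild type peak numbered 27 to 35 and those with a prde-1 peak 20 to 29. At the 5' end alone they numbered 22 to 32 and 18 to 26. The shares of all protein-coding genes with a peak were not recomputed at these settings. Whether the difference from those shares holds there was therefore not tested. With the wild type list cut to the length of the prde-1 list, 19% of 58 wild type peaks at the genes had no counterpart, in place of 36.7%, and 4 prde-1 peaks had none, in place of 1, beside 17.1% and 10.8% of the peaks at all protein-coding genes. With 5' end peaks only, the share was 19% of 42. With the upper 50% of each list, 0 prde-1 peaks had none. A rule of 50% of the peak covered, in place of 1 base, gave 46.8%. Leaving out a replicate was not possible, since the lists are pooled. No paired analysis was possible because the lists carry no values per sample. Depth limits what an absent peak can mean, and differences between the lists have no replicate check.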
